A study of Mus musculus with 45 samples.

Results

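Copy number of mouse chromosome 17 was measured in 45 primary mammary tumors of female mice from 8 genetically engineered models, by array comparative genomic hybridization (CGH) on Agilent 44K arrays. The members are the array probes that lie on chromosome 17 in the mm8 build, apart from those of 3 genes that are not analysed here. They number 1724, of 40666 probes on the 19 autosomes. Of the members, 1524 carry 1 of 910 gene names and 200 are named by position only. They run from 3.08 to 95.08 Mb with a median spacing of 19.3 kb. The centromere of a mouse chromosome lies at its proximal end, so these probes cover its whole sequenced arm.

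The models fall into transgenic and deletion models. The mouse mammary tumor virus promoter, which acts mainly in mammary epithelium, drives an oncogene in MMTV-H-Ras (n = 5), MMTV-Her2/neu (n = 5), MMTV-PyMT (n = 9), MMTV-c-Myc (n = 5) and MMTV-Wnt1 (n = 5) tumors, and C3(1)-Tag tumors (n = 5) carry the SV40 T/t antigens under the C3(1) promoter. The p53-/- tumors (n = 6) are labelled p53fl/fl;MMTV-cre transplant and so came from transplanted tissue in which Cre recombinase removed p53, while the BRCA1-/-;p53+/- tumors (n = 5) are labelled BRCA1fl/fl;p53+/-;MMTV-cre. Every tumor was hybridized against pooled spleen DNA. The labels do not say whether the tumors of a model came from separate mice, so the p-values measure the spread between these tumors. The methods give the spleen DNA as that of the background strain, but the strain's name and the age of the mice are not given for these arrays in the sources used here.

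Array CGH reads the ratio of tumor to reference DNA at each probe. Gain of a whole chromosome in all cells of a diploid tumor, 3 copies over 2, would give a log2 ratio of 0.585, and loss of 1 copy of 2 would give -1. Normal cells in the tumor, or subclones without the change, bring these values towards 0. Mouse chromosome 17 holds the H2 complex, the mouse major histocompatibility complex, whose products present peptides to T cells. It also holds the t-complex and many genes with roles in growth control, among them Pim1, Notch3, Vegfa and Sos1.

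The direction of the ratio was set against the labels. The labels give Cy5 to the tumor, but log2 ratios are reported here as Cy3 over Cy5. In all 21 of the 21 chromosome 17 intervals of at least 5 probes in the authors' table, from 19 tumors, the deposited array values have the sign of Cy3 over Cy5, and in 0 that of Cy5 over Cy3. The 2 probes of Brca1 averaged -1.79 (-2.49 to -0.75) as Cy3 over Cy5 in the BRCA1-/-;p53+/- tumors, where the gene is deleted. The 2 probes of Trp53 were no such check, at -0.19 (-0.53 to 0.17) in the p53-/- tumors against -0.25 in MMTV-Her2/neu and -0.19 in MMTV-c-Myc tumors, and whether they lie in the deleted part was not tested. This choice was made with the values known, and reading the dyes as labelled would turn the sign of every value below.

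The promoters of Glo1, Dnahc8 and Glp1r are shown because these genes lie in a short stretch of the chromosome, described further on. Its edges recurred in 4 tumors of 1 model, both with probes as measured and with single outlying probes limited and neighbouring segments joined. The sequences are from RefSeq for GRCm38.p6, a later build than the arrays' mm8, and run from 250 bases before to 50 bases after the gene's start. Capitals mark the GC box, searched as GGGCGG and, for the other strand, CCGCCC, with overlapping matches counted. It was found in 35.9% of all 27025 promoters in the table.
Glo1, chr17:30612610-30612909, minus strand: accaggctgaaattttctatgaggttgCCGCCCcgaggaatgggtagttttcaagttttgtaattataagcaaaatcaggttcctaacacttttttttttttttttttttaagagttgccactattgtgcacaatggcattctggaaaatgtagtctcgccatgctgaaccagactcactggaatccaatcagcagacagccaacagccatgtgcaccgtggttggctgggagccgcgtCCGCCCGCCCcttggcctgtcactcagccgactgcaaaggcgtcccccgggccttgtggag
Dnahc8 (Dnah8 in RefSeq), chr17:30626686-30626985, plus strand: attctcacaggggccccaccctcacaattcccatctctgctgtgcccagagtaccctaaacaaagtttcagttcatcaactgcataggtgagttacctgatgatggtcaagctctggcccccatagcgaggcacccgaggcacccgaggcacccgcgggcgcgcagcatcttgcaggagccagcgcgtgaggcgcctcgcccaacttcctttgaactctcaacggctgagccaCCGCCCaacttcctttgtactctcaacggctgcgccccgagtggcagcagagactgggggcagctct
Glp1r, chr17:30901617-30901916, plus strand: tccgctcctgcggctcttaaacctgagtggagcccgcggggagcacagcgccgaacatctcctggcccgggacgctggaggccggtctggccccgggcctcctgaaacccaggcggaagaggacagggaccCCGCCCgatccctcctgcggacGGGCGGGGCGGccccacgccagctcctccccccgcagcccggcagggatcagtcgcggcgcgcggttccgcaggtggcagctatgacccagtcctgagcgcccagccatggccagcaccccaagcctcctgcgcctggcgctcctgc
The Glo1 and Glp1r promoters hold 3 matches each and that of Dnahc8 1. They are a description of the letters only, since DNA copy number says nothing about their use.

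The arrays differed in noise. The noise SD, taken from differences between neighbouring probes, ran from 0.158 to 0.476 over the 45 arrays and was highest in the p53-/- tumors P53_2979 (0.448) and P53_5809 (0.476) and the MMTV-PyMT tumor PyMT_11567 (0.473). On each array 96.2 to 99.9% of the member spots were well above background in both dyes. The autosomal profiles of the arrays labelled C3TAg_5RPT (C3(1)-Tag) and H2N53 (MMTV-Her2/neu) correlated at r = 0.96 over 2057 bins of 1 Mb, and those of C3TAg_7RPT and H2N61 at r = 0.93. Over the 83 chromosome 17 bins alone the pairs correlated at 0.47 and 0.29. Over all autosomal bins the next highest of all pairs stood at 0.85 and the median pair at 0.08, so the main comparisons of MMTV-Her2/neu are also given without these 4 arrays. C3TAg_5RPT also correlated with H2N1 at 0.82 and C3TAg_7RPT with H2NA at 0.75. Whether labels or DNA of these arrays were exchanged was not tested, and the C3(1)-Tag values below, with C3TAg_5RPT as 1 of its 2 gained tumors, carry the same doubt. The Wnt1 probe read 0.074 in Wnt_4635 against a mean of 1.06 over the 5 MMTV-Wnt1 tumors.

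Chromosome 17 stood highest in MMTV-H-Ras tumors, next in MMTV-Her2/neu tumors, and lowest in p53-/- tumors. The mean log2 ratio over its probes was 0.28 ± 0.16 (SD, n = 5) in MMTV-H-Ras, 0.16 ± 0.16 (n = 5) in MMTV-Her2/neu and -0.11 ± 0.21 (n = 6) in p53-/- tumors. The other 5 models lay near 0, from -0.0026 ± 0.043 in MMTV-c-Myc through 0.042 ± 0.087 in BRCA1-/-;p53+/-, 0.053 ± 0.14 in MMTV-PyMT and 0.057 ± 0.13 in MMTV-Wnt1 to 0.096 ± 0.10 in C3(1)-Tag tumors. Each difference between neighbours in the order of the 8 means was smaller than the larger of their SDs. Chromosome 17 ranked 3rd highest of the 19 autosomes in MMTV-H-Ras tumors and 4th highest in MMTV-Her2/neu tumors, in both of which chromosome 6 was highest, with means of 0.45 and 0.22. In p53-/- tumors it ranked 3rd lowest, after chromosome 10 as the lowest at -0.19.

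The MMTV-H-Ras tumors were all above 0. Haras_An5_3RPT read 0.29, Hras_An1_3 0.20, Hras_An2_3 0.049, Hras_An3_3 0.43 and Hras_An4_3 0.43. Hras_An2_3 was the lowest of the 5. Of the 1724 probe means over the 5 tumors, 96.8% were above 0 and 72.8% were at least 0.2, so the rise was spread over the probes and not carried by a few.

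Of the MMTV-Her2/neu tumors 4 of 5 were above 0. H2N1 read 0.21, H2N53 0.14, H2N61 0.087, H2N64 -0.040 and H2NA 0.38. H2N64, on the noisiest array of this model (noise SD 0.336), was the single tumor below 0, and 40.8% of the probe means over the 5 tumors were at least 0.2.

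In the p53-/- tumors, 5 of 6 were below 0. P53_1573 read -0.28, P53_5809 -0.18, P53_5817 -0.13, P53_5851 -0.068 and P53_8546 -0.30. The exception was P53_2979, whose mean of 0.28 was as high as the mean of MMTV-H-Ras. Its median over probes was lower, at 0.17. In P53_5809 the median was also lower than the mean, at -0.29, and these were the noisiest arrays of the model. Of the probe means over the 6 tumors, 44.1% were at most -0.2 and 28.5% were above 0.

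**Figure D1:**
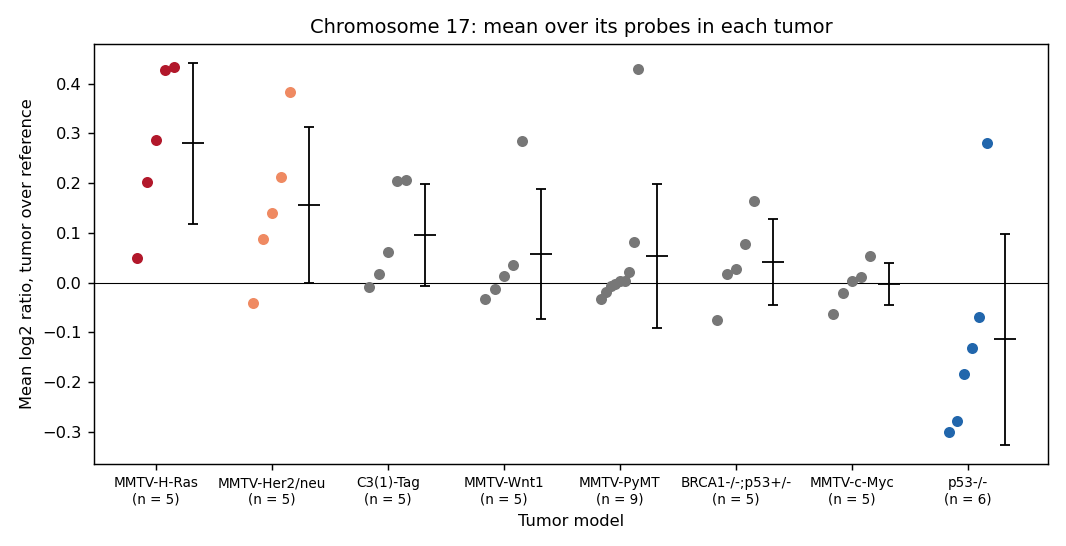
Mean log2 ratio (tumor over reference, Cy3 over Cy5) over the 1724 chromosome 17 probes, 1 point per tumor, by model. The bar beside each model is its mean ± SD; 4 of 5 MMTV-H-Ras tumors sit between 0.20 and 0.43, and 5 of 6 p53-/- tumors between -0.30 and -0.068, with P53_2979 at 0.28.

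Differences between models were tested on these tumor means by two-sided exact permutation tests, adjusted by Benjamini-Hochberg over 6 comparisons. MMTV-H-Ras exceeded p53-/- by 0.39 (SE 0.11, exact permutation adjusted p = 0.0260), and 5 of 6 p53-/- tumors lay below every MMTV-H-Ras tumor. Without the MMTV-H-Ras tumor Haras_An5_3RPT, Hras_An3_3 or Hras_An4_3 the difference stayed at 0.35 to 0.39 but its adjusted p became 0.0571. MMTV-Her2/neu exceeded p53-/- by 0.27 (SE 0.11), which missed the threshold (exact permutation adjusted p = 0.0747). This difference was 0.35 without P53_2979 (adjusted p = 0.0119), 0.33 with the median over probes in place of the mean (adjusted p = 0.0260) and 0.34 after another background correction (adjusted p = 0.0422), all by the same exact permutation test. The difference between MMTV-H-Ras and MMTV-Her2/neu was 0.12 (SE 0.10, exact permutation adjusted p = 0.254), and ran from 0.074 to 0.18 leaving out 1 tumor at a time. Without the 4 near-identical arrays MMTV-Her2/neu exceeded p53-/- by 0.30 (exact permutation adjusted p = 0.125) and lay below MMTV-H-Ras by a difference of 0.095 (exact permutation adjusted p = 0.500).

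Against the tumors of the other 7 models, MMTV-H-Ras was higher by 0.24 (SE 0.076, exact permutation adjusted p = 0.0119) and p53-/- lower by 0.21 on the log2 scale (difference -0.21, SE 0.090, exact permutation adjusted p = 0.0124). MMTV-Her2/neu was higher by 0.10 (SE 0.075, exact permutation adjusted p = 0.240), and by 0.13 without the 4 near-identical arrays (exact permutation adjusted p = 0.235). Leaving out 1 tumor at a time, this difference ran from 0.046 to 0.15. Within 4 slides MMTV-Her2/neu exceeded the C3(1)-Tag, MMTV-PyMT and MMTV-c-Myc tumors on them by 0.20 (exact permutation p = 0.0069, unadjusted, 4 against 10 tumors). Those slides leave out H2N64, the single MMTV-Her2/neu tumor below 0, without which the difference over all tumors was 0.15, and hold 2 of the near-identical arrays. Of the 5 MMTV-H-Ras arrays 4 shared a slide and a scan date that held no other model, and the p53-/- arrays filled 2 slides of their own. For these models slide and model cannot be told apart. MMTV-Her2/neu and p53-/- arrays shared 2 scan dates, within which they differed by 0.31 (exact permutation p = 0.112), by 0.33 on the first (3 against 3 tumors, exact permutation p = 0.30) and by 0.27 on the second (1 against 3, exact permutation p = 0.25). The single dates allowed only 20 and 4 assignments, too few for a p under 0.05, so these 2 tests cannot decide. On the second date 0.25 was the smallest p possible.

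The chromosome moved largely as a whole. Windows were set at up to 33 Mb, 33 to 38 Mb (the H2 complex), 38 to 65 Mb and beyond 65 Mb. In MMTV-H-Ras tumors the window means were 0.29, 0.26, 0.27 and 0.29 in this order, in MMTV-Her2/neu tumors 0.17, 0.11, 0.13 and 0.19, and in p53-/- tumors -0.13, -0.095, -0.14 and -0.077. The distal window minus the proximal one averaged 0.0069 ± 0.052 (SD, n = 5), 0.025 ± 0.062 (n = 5) and 0.049 ± 0.037 (n = 6). None of the 3 differences between these models passed the test (exact permutation adjusted p = 0.474 to 0.587), though without Haras_An5_3RPT, whose distal window stood 0.096 above its proximal one, MMTV-H-Ras minus p53-/- became -0.064 (exact permutation adjusted p = 0.0286).

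Along the chromosome, 83 bins of 1 Mb were compared with limma in a fit over all 2057 autosomal bins. Between MMTV-H-Ras and p53-/- tumors, 80 of 83 bins were higher in MMTV-H-Ras at an adjusted p under 0.05, where 8.02% of all autosomal bins were called higher, and 0 were lower, where 4.62% of all were called lower. All 83 differences were above 0, with a median of 0.45. They ran from 0.29 (SE 0.12, limma adjusted p = 0.101) in the bin that starts at 71 Mb to 0.76 (SE 0.14, limma adjusted p = 0.00053) in the bin at 39 Mb. The latter holds 4 probes, with bin means of 0.32 ± 0.15 in MMTV-H-Ras, 0.20 ± 0.11 in MMTV-Her2/neu and -0.44 ± 0.38 in p53-/- tumors.

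Between MMTV-Her2/neu and p53-/- tumors, 16 of 83 bins were higher in MMTV-Her2/neu, where 0.826% of all autosomal bins were called, that is 16 of the 17 called on the autosomes, and 0 were lower, where 0.486% of all were called. Of the 16, 10 started before 33 Mb (of 29 bins there), 0 lay in the H2 window (of 5), 4 between 38 and 65 Mb (of 23) and 2 beyond (of 26). The 0 of the H2 window thus rests on 5 bins. All 83 differences were again above 0 (median 0.33), and 76 had an unadjusted p under 0.05. This count moved with single arrays. It was 4, 5 or 3 without H2N1, H2N53 or H2NA, 6, 5 or 6 without P53_1573, P53_5809 or P53_8546, 52 without H2N64, 72 without P53_2979 and 0 without the 4 near-identical arrays.

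MMTV-H-Ras and MMTV-Her2/neu differed in 0 of 83 bins by limma, where 10.5% of all autosomal bins were called higher in MMTV-H-Ras and 4.72% lower, and 3 had an unadjusted p under 0.05. The count was 1 without Hras_An2_3. The calls over all autosomes, 215 higher and 97 lower, fell to 0 and 5 without the 4 near-identical arrays and to 0 and 0 without H2N1, H2N53 or Hras_An4_3, and chromosome 17 had 0 calls in each of these settings. The largest difference, 0.33 (SE 0.14, limma adjusted p = 0.0879), lay in the bin at 41 Mb.

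Against the mean of the other 7 models, 66 of 83 bins (79.5%) were higher in MMTV-H-Ras, where 13.9% of all autosomal bins were called higher, and 0 were lower, where 3.99% were. The count was 31 without Haras_An5_3RPT, 0 without Hras_An1_3, 2 without Hras_An3_3 and 2 without Hras_An4_3. After normexp background correction limma called 0 of 83 bins and 0 of all 2057 in this comparison, with 54 of the 83 at an unadjusted p under 0.05. In p53-/- tumors 64 of 83 bins were lower, where 4.81% of all were, and 0 were higher, where 2.28% were, with a median difference of -0.27 and all 83 differences below 0. That count was 42 without P53_1573, 26 without P53_5809 and 30 without P53_8546. For MMTV-Her2/neu limma called 0 of 83 bins, 7 had an unadjusted p under 0.05, and 0 of the 2057 autosomal bins were called. Without H2N64 the count was 5, and over all autosomal bins 74 were then called higher and 254 lower.

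**Figure D2:**
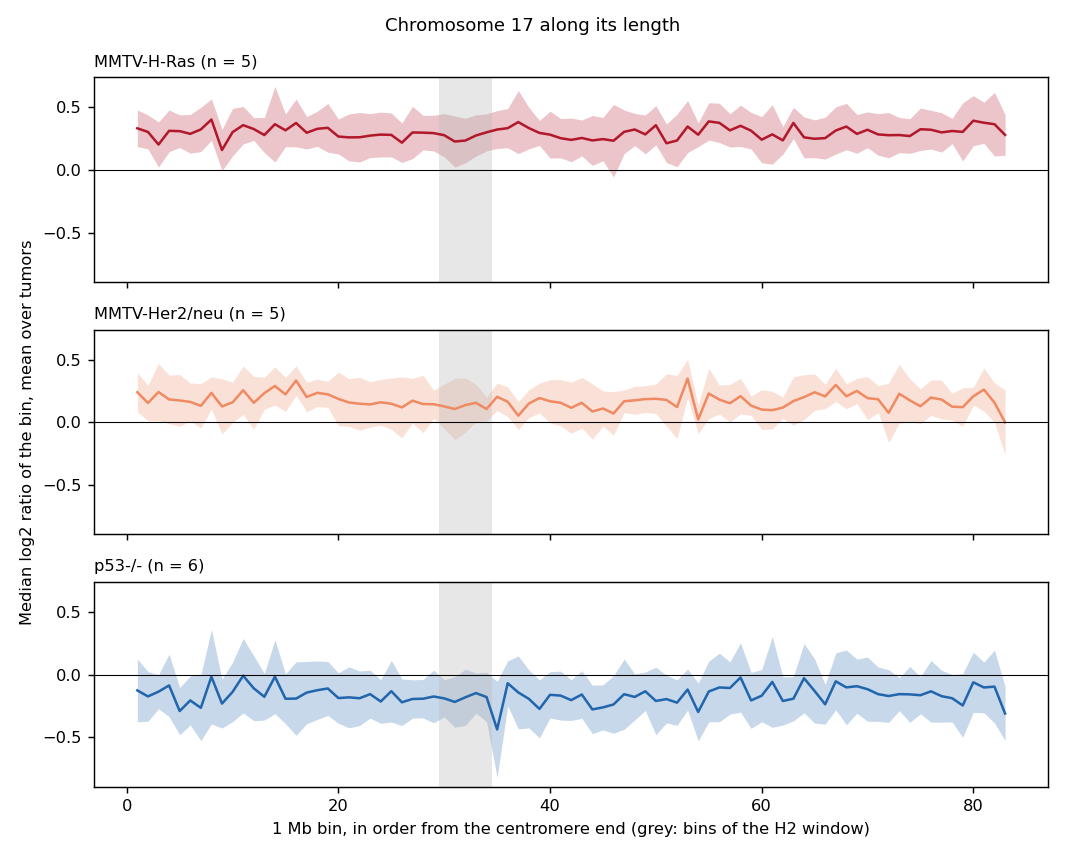
Log2 ratio along chromosome 17 in 83 bins of 1 Mb, shown in order from the proximal end, as the mean (line) ± SD (band) over the tumors of each model of the bin's median; grey marks the H2 window. The MMTV-H-Ras line stays above 0 over the whole chromosome, the MMTV-Her2/neu line is lower and near 0 at the last bin, and the p53-/- line lies below 0 and is lowest in the bin at 39 Mb (-0.44).

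Segments of equal copy number were found in each tumor by circular binary segmentation, and a segment was called gained or lost at a mean of at least 0.2 in size. A tumor was counted when at least 10% of the member probes lay in such segments. Chromosome 17 was gained in 4 of 5 MMTV-H-Ras tumors (95% exact Clopper-Pearson interval 28.4 to 99.5%) and in 3 of 5 MMTV-Her2/neu tumors (14.7 to 94.7%). It was lost in 4 of 6 p53-/- tumors (22.3 to 95.7%). Counts of this size were not particular to chromosome 17, since 2 of the 18 other autosomes were gained in at least as many MMTV-H-Ras tumors, 2 in at least as many MMTV-Her2/neu tumors, and 2 were lost in at least as many p53-/- tumors. The median of the other autosomes was 0.5, 0.5 and 2 tumors.

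In MMTV-H-Ras the 4 gained tumors had all of the chromosome in gained segments (100%), and Hras_An2_3 had none (0%). In MMTV-Her2/neu the gained share was 98.1% in H2NA, 42.3% in H2N53 and 34.7% in H2N1, and at most 0.29% in H2N61 and H2N64. In p53-/- the lost share was 96.9% in P53_1573, 96.6% in P53_8546, 66.2% in P53_5809, 17% in P53_5817 and 5.92% in P53_5851, while in P53_2979 80.6% of the probes were gained. H2NA, P53_1573 and P53_8546 were thus called over nearly all of the chromosome, and Hras_An1_3, called over all of it, had a mean of 0.20, at the threshold. In another setting, called limited probes below, single outlying probes were limited before segmentation and neighbouring segments joined after it. The 3 counts then became 4, 2 and 2, as H2N53, P53_5809 and P53_5817 fell out. Without the 4 near-identical arrays, 2 of the 3 MMTV-Her2/neu tumors left were gained. The authors' intervals, by contrast, gave 1 lost p53-/- tumor, P53_5817 (98.4%), with 0.464% lost in P53_1573 and 1.22% in P53_8546, so the p53-/- tumors called lost differed between the methods.

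Over all 45 tumors, chromosome 17 was gained in 14 and lost in 5, and with limited probes in 12 and 2. Beside the 3 models' tumors above and P53_2979, the gained tumors were 2 C3(1)-Tag, 2 BRCA1-/-;p53+/- (of which Brcap53_503, at 11.1%, fell to 0% with limited probes), 1 MMTV-PyMT and 1 MMTV-Wnt1 tumor, and the lost tumor was Brca_14 of BRCA1-/-;p53+/-, whose lost share fell from 15.3% to 1.97% with limited probes and which was 53.4% gained in the authors' intervals. The MMTV-PyMT tumor PyMt 3 (mean 0.43) and the MMTV-Wnt1 tumor Wnt_4676 (mean 0.29) had the whole chromosome gained (100%), while the other tumors of these models were called gained over at most 7.54%. The authors' intervals also had Wnt_4635 gained over 99.8% of the probes, and had P53_2979 gained over 0.87%.

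**Figure D3:**
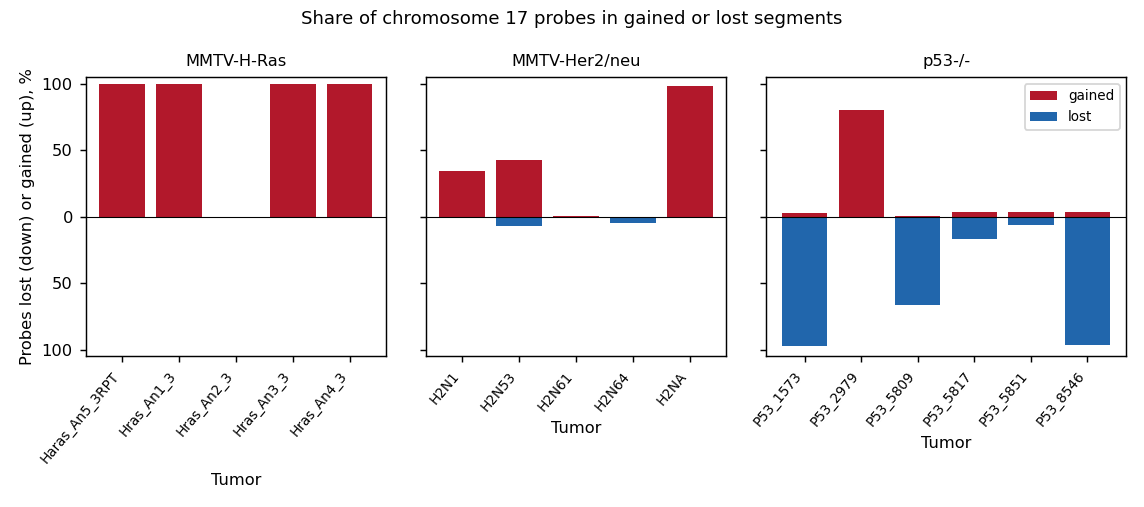
Share of chromosome 17 probes (%) in segments called gained (red, upward) or lost (blue, downward) in each tumor of 3 models; the vertical axis counts up in both directions from 0. Bars reach 100% in 4 of 5 MMTV-H-Ras tumors, 98.1% in H2NA, and 96.9% and 96.6% lost in P53_1573 and P53_8546.

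Genes with roles in cancer moved with the chromosome. The list of oncogenes and growth regulators had 22 genes, of which 20 had a probe. All 20 lay in bins called higher in MMTV-H-Ras than in p53-/- tumors, where 8.02% of autosomal bins were, and 19 of 20 were higher by their own probes, as were 90.4% of all member probes. Their median difference was 0.37, against 0.44 for all 1724 members and 0.021 for all 40666 autosomal probes. Pim1, a serine/threonine kinase that promotes survival, averaged 0.16 ± 0.27 (SD, n = 5) in MMTV-H-Ras, 0.093 ± 0.41 in MMTV-Her2/neu and -0.31 ± 0.23 (n = 6) in p53-/- tumors. The receptor genes Notch3 and Notch4 averaged 0.32 and 0.24 in MMTV-H-Ras, 0.065 and 0.099 in MMTV-Her2/neu, and -0.26 and -0.74 in p53-/- tumors. Runx2, a transcription factor of bone, averaged 0.33, 0.17 and -0.27 in the 3 models in this order. Vegfa, which codes for an angiogenic growth factor, averaged 0.14, 0.22 and -0.072. Eml4, a microtubule-binding gene, went against the rest, at 0.22, 0.43 and 0.60, and 1 of its 3 probes was a deviating probe described further on.

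Tumor suppressor and genome maintenance genes followed the same course. Of 13 listed genes 11 had a probe, all 11 in bins called higher in MMTV-H-Ras than in p53-/- tumors and 10 in bins called lower in p53-/- tumors than in the other 7 models. Their median difference between MMTV-H-Ras and p53-/- was 0.47. Msh6, a mismatch repair gene, averaged 0.25 ± 0.16 in MMTV-H-Ras, 0.073 ± 0.16 in MMTV-Her2/neu and -0.21 ± 0.14 in p53-/- tumors. Tsc2, a negative regulator of mTOR signalling, averaged 0.47, 0.14 and 0.012 in the 3 models. Igf2r, which removes the growth factor IGF2, averaged 0.46, 0.27 and -0.090, and Thbs2, an inhibitor of angiogenesis, 0.25, 0.16 and -0.43. These counts stand beside 96.4% of all chromosome 17 bins called higher in MMTV-H-Ras than in p53-/- tumors and 77.1% called lower in p53-/- than in the other 7 models.

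Of the 6 genes of Ras and MAP kinase signalling 5 had a probe, all in bins called higher in MMTV-H-Ras than in p53-/- tumors, with 1 in a bin called higher in MMTV-Her2/neu than in p53-/-. Of all chromosome 17 bins 96.4% and 19.3% were so called, and of all autosomal bins 8.02% and 0.826%. Sos1, an exchange factor that activates Ras, averaged 0.15 ± 0.11 in MMTV-H-Ras, 0.17 ± 0.19 in MMTV-Her2/neu and -0.20 ± 0.21 in p53-/- tumors. Rasgrp3, another activator of Ras, averaged 0.29, 0.21 and -0.23, and the p38 kinase gene Mapk14 0.17, 0.18 and -0.28. Rps6ka2, a kinase downstream of ERK, averaged 0.21, 0.10 and -0.43. Another p38 kinase gene, Mapk13, averaged 0.38, 0.068 and 0.096, the single gene of the 5 that was not higher in MMTV-Her2/neu than in p53-/- tumors. The 3 genes named for the t-complex, Tcp11, Tcte1 and Tcte2, had medians of 0.28, 0.19 and -0.050. Of these, Tcp11 went the other way, at -0.015 in MMTV-H-Ras and 0.079 in p53-/- tumors.

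The antigen presentation list, H2 genes with Tap and Psmb genes, had probes for all 21 genes, all in bins called higher in MMTV-H-Ras than in p53-/- tumors and lower in p53-/- than in the other 7 models. Of all chromosome 17 bins 96.4% and 77.1% were so called, and of all autosomal bins 8.02% and 4.81%. By their own probes 20 of 21 genes were higher in MMTV-H-Ras than in p53-/- tumors, as were 90.4% of all member probes, and 7 of 21 were higher in p53-/- than in the other 7 models, by up to 0.66. Median levels over the list were 0.29 in MMTV-H-Ras, 0.083 in MMTV-Her2/neu and -0.18 in p53-/- tumors, but single genes spread widely. H2-Ab1, a class II chain, averaged 0.12 ± 0.26, 0.029 ± 0.27 and -0.23 ± 0.26, and the immunoproteasome gene Psmb8 0.33 ± 0.27, -0.096 ± 0.28 and -0.67 ± 0.32. At the single probe of the class I gene H2-T10 the means were 0.52 ± 0.43, 0.19 ± 0.40 and -2.16 ± 1.58. At the single probe of Tap1, a subunit of the peptide transporter, they were 1.64 ± 1.65, 0.065 ± 0.34 and 1.26 ± 1.60, with MMTV-H-Ras tumors from -0.18 to 3.70. Tumors of 1 model read far apart at both probes: H2-T10 was -2.82 to -3.55 in P53_1573, P53_5817, P53_5851 and P53_8546 but 0.0064 and -0.32 in P53_2979 and P53_5809, and Tap1 also had an SD of 1.00 in MMTV-c-Myc and 0.83 in MMTV-PyMT tumors.

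A short stretch from Btbd9 to Glp1r rose above its surroundings in p53-/- tumors. It covered 10 probes over 438 kb, mm8 chr17:30212210-30650272, with probes of Btbd9, the transcript AK002941, Glo1, Dnahc8 and Glp1r. Glo1 codes for glyoxalase 1, which detoxifies methylglyoxal, Dnahc8 for an axonemal dynein heavy chain, and Glp1r for the receptor of the incretin GLP-1. The mean of the 10 probes minus that of the 40 flanking probes was 1.07 (SE over probes 0.092) in P53_1573, 1.02 (SE 0.084) in P53_5817, 1.18 (SE 0.087) in P53_5851 and 1.15 (SE 0.082) in P53_8546. In each of these 4 tumors all 10 probes read above the flank. In P53_2979 and P53_5809, the noisiest arrays of the model, it was 0.30 (SE 0.22) and 0.36 (SE 0.24), with 5 and 6 of 10 probes above the flank. The highest of the 39 tumors of other models was 0.21, and all 6 p53-/- tumors lay above it. The means of the other models ran from -0.050 to 0.095. The stretch was noticed in these data, so no test is given.

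Both edges of the stretch fell between the same probes in P53_1573, P53_5817, P53_5851 and P53_8546. The proximal edge lay within Btbd9, between probes at 30.10 and 30.21 Mb, with a step of 0.92 to 1.11, and the distal edge between Glp1r at 30.65 Mb and Umodl1 at 30.69 Mb, with a step of -0.91 to -1.13. At the first Glo1 probe (mm8 chr17:30320118-30320170) these tumors read 0.52, 0.74, 0.83 and 0.67, and at the second (chr17:30329842-30329900) 0.58, 0.60, 0.70 and 0.67, while the next probe beyond the distal edge, in Umodl1, read -0.31, -0.15, -0.20 and -0.30. In P53_2979 and P53_5809 the first Glo1 probe read 0.64 and 0.36 and the second -0.22 and -0.79. The stretch thus stood above 0 in tumors whose chromosome 17 as a whole lay below 0. As background, the segment around Glo1 is known to vary in copy number between inbred mouse strains. The part of strain in these values was not tested.

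**Figure D4:**
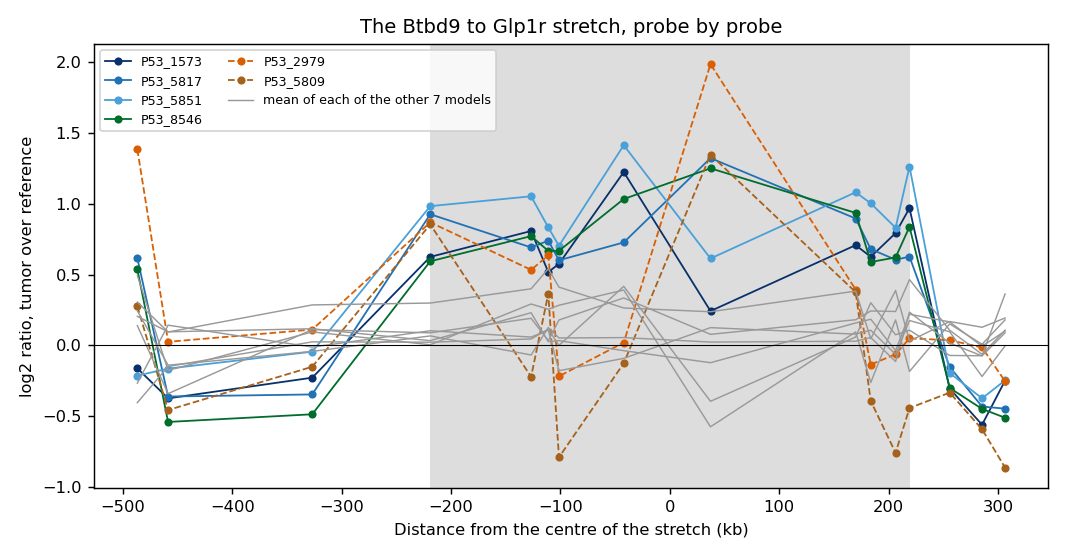
Log2 ratio (tumor over reference) at the 10 probes of the Btbd9 to Glp1r stretch (grey) and 3 probes on either side, against distance from the centre of the stretch in kb, for the 6 p53-/- tumors and, in grey lines, the mean of each other model. Solid lines are the 4 tumors that share both edges, each above its flank at all 10 probes; dashed lines are P53_2979 and P53_5809, which scatter from -0.79 to 1.99 within the stretch.

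Breakpoints inside the chromosome depended on how single probes and neighbouring segments were treated, which were changed together. With probes as measured, 308 boundaries with a step of at least 0.2 lay inside chromosome 17, in 31 of 45 tumors, or 7.44 per 100 Mb and tumor against 5.41 on the other autosomes. Of these, 120 fell in the 6 p53-/- tumors, 68 in MMTV-Her2/neu, 67 in BRCA1-/-;p53+/- and 8 in MMTV-H-Ras tumors. With single outlying probes limited and neighbouring segments joined, an alternative added after seeing the data, 30 boundaries were found, in 10 tumors, not all of them among the 308, or 0.725 per 100 Mb and tumor against 0.783 on the other autosomes. They fell in 4 p53-/- tumors (12), 3 BRCA1-/-;p53+/- tumors (11) and 3 MMTV-Her2/neu tumors (7), and in 0 MMTV-H-Ras tumors. Gain in MMTV-H-Ras thus came without an internal step of at least 0.2 under this setting.

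Of the 30 boundaries, 8 were the edges of the Btbd9 to Glp1r stretch. With probes as measured, the same 4 p53-/- tumors also shared both edges of a 5-probe segment from AY989850 to 35.84 Mb, at 1.71, 1.78, 2.37 and 1.71, which was also cut out in H2N61 (0.73), PyMT_11567 (-1.55) and PyMT_11570 (-1.42) and was not kept with limited probes. Another group of the 30 lay in the H2 window, at or beside a 5-probe stretch from Gtf2h4, a subunit of the transcription factor TFIIH, to the early response gene Ier3 (mm8 chr17:35275779-35430985). Stretch minus flank was -1.89 (SE 0.75) in P53_8546, -2.07 (SE 0.85) in H2N53, -1.07 (SE 0.45) in H2NA and -2.19 (SE 1.00) in Brca_14. The means rest largely on the 2 Gtf2h4 probes, which overlap each other and read -1.83 and -1.60 in H2NA and -3.68 and -5.18 in Brca_14. With probes as measured PyMt342 was cut at the same edges, at -0.95. With limited probes both edges were boundaries in P53_8546 and H2NA and the proximal one alone in Brca_14, while the boundaries of H2N53 lay beside them, from Vars2l at 35.27 Mb to Ddr1 at 35.31 Mb. At a Gtf2h4 probe (chr17:35275793-35275852) the value was -3.86 in P53_8546, -3.45 in H2N53 and -1.60 in H2NA, but -0.29 in H2N61 and 0.46 in Haras_An5_3RPT. By model, stretch minus flank averaged -0.85 ± 0.55 in p53-/-, -0.74 ± 0.85 in MMTV-Her2/neu, -0.67 ± 0.93 in BRCA1-/-;p53+/- and -0.087 ± 0.14 in MMTV-H-Ras tumors.

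Boundaries of BRCA1-/-;p53+/- tumors marked other pieces. Brca_54 held a gain from Opn5 at 42.06 Mb to Abcg8 at 84.61 Mb at 0.27, with -0.0041 beyond, though the stretch exceeded its 40 flanking probes by 0.19 (SE 0.19) and with probes as measured was broken from 47.87 to 52.73 Mb at 0.0097. It was the longest gained piece with both ends inside the chromosome among the 30 boundaries. It also held a short stretch at 0.83 from Prr3 at 35.59 Mb to a probe at 35.84 Mb, whose distal edge recurred in Brcap53_682 (0.56). Brca_14 held a loss at -0.58 over 34 probes from AI314976 at 47.88 Mb to 49.94 Mb, next to Plcl2. These probes lay below their flank by a difference of -0.62 (SE 0.17) in Brca_14, but also of -0.38 (SE 0.12) in Brca_42, -0.26 (SE 0.13) in Brca_54, -0.31 (SE 0.10) in P53_2979 and -0.30 (SE 0.11) in P53_5809. With probes as measured the piece in Brca_14 had other edges, 49.04 to 49.82 Mb, at -0.99 over 15 probes. In H2N64 a boundary lay between Zfp13 at 23.32 Mb and BC038613 at 23.39 Mb and another between Trip10 at 56.95 Mb and Vav1 at 56.98 Mb. The first lay close to an edge found with limited probes in Haras_An5_3RPT and Wnt_4679 (22.92 to 23.32 Mb), and the second was shared with Haras_An5_3RPT, in each case with steps under 0.2 in the other tumor. With probes as measured, the first edge of H2N64 also recurred in PyMT_11570 (0.33 to -0.010) and C Myc_04004022, the second in Wnt_4676, and the edge at 22.92 Mb in C3TAg4 and PyMt 3. Probe density changed at the same places, with 12.8 probes per Mb before 22.92 Mb, 31.3 between 23.32 and 56.95 Mb and 11 beyond 56.98 Mb, and its part in these edges was not tested.

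Single probes far from their neighbours were most frequent in p53-/- tumors. A probe was called deviating in a model when it lay at least 1 in size from the median of the 20 probes around it in at least 4 tumors of the model. There were 47 such probes in p53-/- (33 mostly higher, 14 mostly lower), 12 in MMTV-PyMT, 7 in MMTV-Her2/neu, 6 in BRCA1-/-;p53+/-, 1 in MMTV-c-Myc and 0 in MMTV-H-Ras, C3(1)-Tag and MMTV-Wnt1 tumors. Models with more tumors had more chances to reach 4. Of the 47 probes 15 lay in the H2 window, which holds 14.4% of the members.

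The 47 probes of p53-/- tumors marked the same 4 tumors as the Btbd9 to Glp1r stretch. P53_8546 deviated at 46 of them, P53_5817 at 45, P53_1573 at 37 and P53_5851 at 35, while P53_5809 deviated at 18 and P53_2979 at 19. In the 4 tumors together, 34 of the 1724 members deviated in the same direction, and of these 34 probes 4 did so in P53_2979 and 3 in P53_5809. In turn, P53_2979 and P53_5809 deviated in the same direction from their neighbours at 98 members. The probes were chosen on these tumors, so the counts are a description. In the other 39 tumors the count at the 47 probes ran up to 23, in Brca_42.

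The most extreme probes showed the split. At the probe of Olfr137, an olfactory receptor gene (mm8 chr17:37912688-37912746), the largest p53-/- mean of all members, P53_1573 read 5.98, P53_5817 6.73, P53_5851 6.56 and P53_8546 6.51, against -0.43 in P53_2979 and 0.64 in P53_5809. At the probe with the smallest p53-/- mean, chr17:19764439-19764498, the same 4 tumors read -5.93, -6.88, -7.03 and -6.59, against -0.069 and -0.48. Values of this size are far beyond the -1 of 1 copy lost. High values at Olfr137 were shared with 4 of 5 BRCA1-/-;p53+/- tumors (3.61 to 6.19), while Brcap53_503 read -1.18, and PyMT_11567 and PyMT_11570 read -5.00 and -4.89. At the probe of Hspa1a, which codes for the heat shock protein Hsp70, the 4 tumors read 4.31 to 4.86, and at Cenpq, a kinetochore gene, all 6 p53-/- tumors read 1.90 to 3.11 at 1 of its probes. Brca_14, Brca_42 and Brca_54 read 4.97, 5.76 and 4.55 at Hspa1a and 2.96, 3.33 and 3.01 at this Cenpq probe. At the probe of the gene A130038H09Rik all 6 read 1.93 to 3.86, a range that also held Hras_An4_3 (2.85), PyMt427 (2.84), PyMT_11567 (2.29) and Wnt_4675 (2.01).

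Another set of probes read low in every MMTV-Her2/neu tumor but H2N64, and in single tumors of other models. At 1 of the probes of Wiz, a zinc finger gene, H2N1 read -2.64, H2N53 -2.82, H2N61 -1.86, H2N64 -0.32 and H2NA -2.64. This was the probe with the smallest mean in both MMTV-Her2/neu and MMTV-H-Ras, where Hras_An2_3 read -3.17 and the other 4 tumors between -0.026 and 0.56. The probes of Dom3z, Zbtb12 and Zfp36l2 read low in the same tumors, at -2.70, -2.28 and -2.35 in H2N1 and at -2.17, -2.40 and -2.79 in Hras_An2_3, but at -0.74, -0.49 and -0.24 in H2N64. In p53-/- tumors P53_5817, P53_5851 and P53_8546 read -2.25 to -3.56 at these 4 probes and P53_1573, P53_2979 and P53_5809 between -0.68 and 0.32. The Wiz probe also read -2.70 in PyMt342, -2.61 in PyMt435, -2.34 in C Myc_04004021 and -1.96 in Brca_14. The low values thus crossed models and split them. The probe with the largest MMTV-Her2/neu mean (mm8 chr17:73991677-73991736, 1.43 ± 0.42) also deviated in p53-/-, MMTV-PyMT and MMTV-c-Myc tumors, and in MMTV-H-Ras tumors it ran from -0.78 to 3.31.

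**Figure D5:**
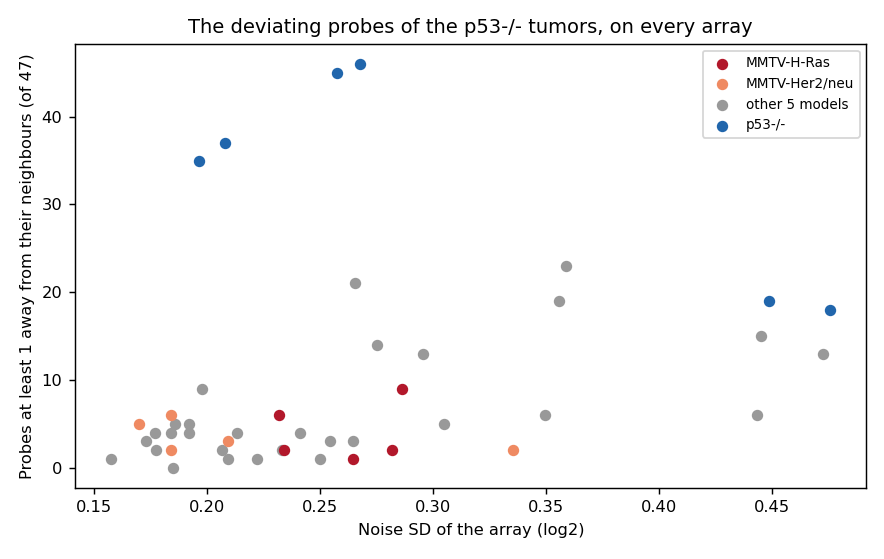
Number of the 47 deviating probes of the p53-/- tumors at which each of the 45 tumors lies at least 1 in size from the median of the 20 probes around it, against the noise SD of the array (log2). P53_1573, P53_5817, P53_5851 and P53_8546 stand at 35 to 46, P53_2979 and P53_5809 at 19 and 18, and the other models at 0 to 23.

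Without the probes of the Btbd9 to Glp1r stretch and of the H2 window, chromosome 17 still stood higher in MMTV-H-Ras than in p53-/- tumors and higher in MMTV-Her2/neu than in p53-/- tumors, by 0.40 (exact permutation adjusted p = 0.0303) and 0.29 (exact permutation adjusted p = 0.0649).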

How the data were processed

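The authors scanned 2-colour Agilent 44K CGH arrays, 1 per tumor, and ran Feature Extraction (9.5.1.1 per the file headers, 10.7 per the submitters' processing notes), build mm8. The deposited log10 ratios (Cy5 over Cy3) were background-subtracted, detrended and dye-normalized by that software. The headers give 1 dye normalization code for 39 arrays and another for 6, of which 4 were MMTV-Wnt1 and 2 MMTV-PyMT arrays. The part of this difference was not tested. The ratios were turned to log2 of Cy3 over Cy5, control and outlier spots were left out, spots of a probe were averaged, and each array was centred on its autosomal median. Deposited intensities (mean signal and local background) entered an alternative with normexp (offset 50). The authors' table of aberration intervals, with log2 means and a count of probes per interval, entered the direction check and an alternative, and 8 interval tables of single models were not used.

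Model means were compared by exact two-sided permutation tests. Bins of 1 Mb (at least 3 probes) were tested with limma 3.58.1 in R 4.3.3, 8 model means in a fit, Benjamini-Hochberg over 2057 bins. Segmentation split at a statistic over 6 with at least 5 probes a segment. Python used numpy 2.4.6, pandas 2.3.3 and scipy 1.17.1. The scripts were tested on simulated data. Members, gene lists and tests were chosen with earlier results of these data known. Named genes were taken from up to the first 8 of each list, the genes at boundaries and the probes with the largest and smallest mean in MMTV-H-Ras, MMTV-Her2/neu and p53-/-; Eml4, Psmb8, H2-T10, Hspa1a, Cenpq, A130038H09Rik and the low probes of MMTV-Her2/neu were chosen after their values were seen. The number of arrays limits the precision, and intervals on counts of tumors cover sampling of tumors only. Alternatives covered direction, centring, background, bins, segmentation, slide and scan date, near-identical arrays and single tumors. Some genes of the lists are counted but not reported by name here.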

Additional observations from a re-analysis of the deposited data

Results flagged for a closer look

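In 21 of 77 groups of values tested, the highest or lowest tumor stood apart from the others of its model by Dixon's 95% critical value, and chance flags about 1 in 20 groups. The flags fell on 9 tumors, and the measures overlap.

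PyMt 3 (MMTV-PyMT) stood apart with a chromosome 17 mean of 0.43, window means of 0.42, 0.38, 0.42 and 0.49 from proximal to distal, and a gained share of 100%. Wnt_4676 (MMTV-Wnt1) did so with a mean of 0.29, window means of 0.30, 0.21, 0.26 and 0.34, and a gained share of 100%. P53_2979 (p53-/-) stood apart in the first window at 0.29, in the last at 0.37 and in its gained share of 80.6%.

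Hras_An2_3 had a gained share of 0% where the other MMTV-H-Ras tumors had 100%. Among BRCA1-/-;p53+/- tumors Brca_54 had a gained share of 53.1% and Brca_14 a lost share of 15.3%. Lost shares of 0.29% in C3TAg_7RPT (C3(1)-Tag) and in C Myc_04005648 (MMTV-c-Myc) were flagged because the other tumors of those models had 0%. The distal minus proximal difference of C Myc_4An7 (MMTV-c-Myc) was -0.0074, below the others of its model.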

How the results depend on the processing

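Over the alternatives, 443 of the recomputed values kept their direction and their side of the threshold or, for counts, stayed close to the main count. Of the rest, 38 counts moved further, 14 values turned direction, 5 newly passed the threshold and 3 no longer passed it. Reading the dyes as labelled turned the mean differences to -0.39, -0.27 and -0.12 between the 3 models, to -0.24, -0.10 and 0.21 against the other 7 models, the distal minus proximal differences to 0.042, 0.025 and 0.018, the directions of the 80, 16, 66 and 64 called bins, and the counts of gained or lost tumors to 0, 0 and 1. MMTV-Her2/neu minus p53-/- passed the test after normexp (0.34) and with the median over probes (0.33), and within slides MMTV-Her2/neu exceeded the 3 models beside it by 0.20 (unadjusted test). With bins of 2 Mb, of which chromosome 17 has 45, MMTV-H-Ras minus p53-/- gave 45 calls, MMTV-H-Ras minus the others 42, p53-/- minus the others 38 and MMTV-Her2/neu minus p53-/- 23. Calls for MMTV-Her2/neu minus p53-/- were 1 with centring on the density peak, 30 with centring on the median of the other autosomes, 42 after normexp and 0 without the 4 near-identical arrays. Density peak centring gave 1 call for MMTV-H-Ras minus MMTV-Her2/neu, and normexp 0 for MMTV-H-Ras and 1 for MMTV-Her2/neu against the others. At a share of 50% 1 MMTV-Her2/neu tumor was gained. Lost p53-/- tumors numbered 2 with limited probes and joined segments (added after seeing the data), 2 at a call of 0.3 and 1 in the authors' intervals. Breakpoints numbered 78 after normexp, 485 at a split statistic of 5, 30 with limited probes and joined segments, and 613 in the authors' intervals. Leaving out 1 tumor gave mean differences of 0.35 to 0.47 (MMTV-H-Ras minus p53-/-) and 0.21 to 0.35 (MMTV-Her2/neu minus p53-/-), distal minus proximal differences of -0.064 to -0.029 (MMTV-H-Ras minus p53-/-) and -0.040 to 0.0060 (MMTV-H-Ras minus MMTV-Her2/neu, turned without H2N64), and calls of 0 to 1 (MMTV-H-Ras minus MMTV-Her2/neu), 0 to 75 (MMTV-H-Ras minus the others), 3 to 72 (MMTV-Her2/neu minus p53-/-), 0 to 5 (MMTV-Her2/neu minus the others) and 26 to 76 (p53-/- minus the others). The within-date comparison and the one without the stretch and H2 window were also added after seeing the data. The causes were not tested. No paired analysis was possible because replicates are numbered in accession order only, so that numbers pair no tumors. Of the 18 slides 6 held more than 1 model, and 4 of these entered the within-slide comparison above.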
